A study of Mus musculus with 4 samples.

Results

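Genes that mark the mesothelium and the epicardium were followed in infarcted heart tissue of KDM5B-knockout (KO) and wild-type (WT) mice. They were Msln, Lrrn4, Upk3b, Upk1b, Krt8, Krt18, Krt19, Wt1, Tbx18 and Aldh1a2, that is, 10 of the 27376 gene names carried by the non-control probes of the array, and they were found by gene name alone. Between them they had 12 probes, and all 12 were well above background on all 4 arrays. The KO mice carried a CRISPR/Cas9 deletion in Kdm5b, a histone lysine demethylase gene, that took out the JmjC domain and shifted the reading frame, on a C57BL/6 background. They and their WT controls were labelled male and were 8 to 10 weeks old. The left anterior descending coronary artery was ligated 7 days before the heart tissue was taken. Every array came from an infarcted heart, so a myocardial infarction was common to all groups and no sham array was part of the comparison. Each genotype had 2 arrays, numbered 2 and 3 in the labels (WT 2, WT 3, KO 2 and KO 3). The deletion was not restricted to a cell type. Nothing in the labels says whether an array held RNA of 1 mouse or of a pool, nor which zone of the tissue was sampled. The p-values below therefore measure the spread between these arrays only.

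The epicardium is the mesothelial sheet that covers the heart, and the pericardium, pleura and peritoneum are lined by the same kind of flat epithelium. Its cells carry surface glycoproteins such as mesothelin and the uroplakins, a keratin skeleton, and the transcription factors Wt1 and Tbx18, and they make retinoic acid through Aldh1a2. In the adult heart the epicardium is quiet, but after injury it takes up its fetal gene programme again, thickens, and can give rise to fibroblast-like cells by an epithelial-to-mesenchymal transition. In RNA from a whole tissue, a lower level can come from fewer cells of a type or from less RNA per cell, and the 2 cannot be told apart.

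The sequences that were measured are given first, since every value below is the brightness of 1 such probe. Each probe was 60 bases long and lay on 60 unbroken bases of the genome. Bases 31 to 60 of the brighter probe of each gene are printed 5′ to 3′, with the position of the whole probe on build mm9 as the files give it, and capitals mark the polyadenylation signal AATAAA, which usually lies close to the end of a transcript.
Msln, chr17:25885569-25885628, minus strand: ggactcttgaactcAATAAAcagtggcata
Lrrn4, chr2:132694490-132694549, minus strand: actatacatttctaagtgggttatccaagc
Upk3b, chr5:136520522-136520581, plus strand: tggctattaatgacagtcggctacctagcc
Upk1b, chr16:38773859-38773918, minus strand: gacgactctcattcctgtctatgtttaatg
Krt8, chr15:101827214-101827273, minus strand: cttaggaggaatttcctatctgggatatcc
Krt18, chr15:101862341-101862400, plus strand: caccagagttctgaggcactgaggcagaga
Krt19, chr11:100002392-100002451, minus strand: cagatccagagcgtgatcagcggttttgaa
Wt1, chr2:105013428-105013487, plus strand: gtatctttgaatctgcaagtatgtagggaa
Tbx18, chr9:87599514-87599573, minus strand: tctgaggtatctatagcAATAAAggcttag
Aldh1a2, chr9:71143931-71143990, plus strand: agaatgtgaaaatgaagatttatgactttt
The signal was present in the printed probes of Msln and Tbx18, 2 of the 12 probes, against 4.78% of all 60-base probes on the array. The GC content of the 12 probes ran from 35.0% to 55.0%, with a median of 40.0% over all probes. No gene annotation of build mm9 was used, so exons and untranslated regions were not assigned to the probes.

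Promoters were printed for 3 of the genes because they stood at opposite ends of the results: Lrrn4 and Upk3b had the widest gap between the KO arrays, and Aldh1a2 was one of the few genes with both KO arrays above both WT arrays. The 250 bases before an annotated start were taken from RefSeq (assembly GRCm38.p6), which gave a promoter for 6 of the 10 genes (Aldh1a2, Krt8, Krt18, Lrrn4, Tbx18 and Upk3b). The start used for Lrrn4 lies inside the gene as the same assembly annotates it, not at its outer end. Short motifs were searched on both strands. AGATAA is bound by zinc finger factors of heart and blood cells that take their name from the core of that motif, and GGAATG by the TEAD family. AGGTGTGA is the motif of T-box proteins such as Tbx18, and that of the WT1 and EGR proteins was searched as GGGGGCG. Capitals mark the matches, and no 2 matches overlapped.
Lrrn4, chr2:132880863-132881112, minus strand: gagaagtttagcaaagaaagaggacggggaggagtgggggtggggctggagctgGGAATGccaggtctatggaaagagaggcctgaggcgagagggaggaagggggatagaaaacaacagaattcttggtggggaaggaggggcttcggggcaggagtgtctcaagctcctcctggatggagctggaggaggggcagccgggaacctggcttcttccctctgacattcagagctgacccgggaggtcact
Upk3b, chr5:136038246-136038495, plus strand: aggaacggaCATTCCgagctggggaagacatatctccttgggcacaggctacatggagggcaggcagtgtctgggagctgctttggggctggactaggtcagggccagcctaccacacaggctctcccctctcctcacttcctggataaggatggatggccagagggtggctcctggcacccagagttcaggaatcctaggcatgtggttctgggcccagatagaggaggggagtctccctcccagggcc
Aldh1a2, chr9:71215539-71215788, plus strand: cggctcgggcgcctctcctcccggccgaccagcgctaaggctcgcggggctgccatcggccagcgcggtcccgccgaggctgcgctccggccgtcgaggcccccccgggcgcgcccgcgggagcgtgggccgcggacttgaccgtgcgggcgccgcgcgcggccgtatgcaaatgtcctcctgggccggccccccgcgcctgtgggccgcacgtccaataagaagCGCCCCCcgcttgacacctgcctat
GGAATG or its reverse complement lay in the promoters of Lrrn4 and Upk3b, 2 of 6, against 12.6% of 32851 promoters of this length. GGGGGCG or its reverse complement lay in those of Aldh1a2 and Krt18, also 2 of 6, against 14.8% of all promoters. AGATAA was found in the Krt8 promoter alone, against 9.99% of all, and AGGTGTGA in none of the 6, against 1.12%. The Aldh1a2 window had a GC content of 77.6%, compared with 59.2% for Lrrn4, 60.8% for Upk3b and a median of 52.4% over all promoters. A match here is a string of letters and not a bound site. Krt8 and Krt18 are neighbours on chromosome 15, with 23.9 kb between them.

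Signals are given as log2 of the processed intensity minus the 75th percentile of the same array, so 0 is the level of that percentile, and levels were not compared between genes. The value of array 2 stands before that of array 3 in each genotype. On each array 68.15% to 72.05% of probes exceeded background clearly, no non-control spot was saturated, and precision was limited by having 4 arrays. Kdm5b, the targeted gene, gave levels of −0.87 and −1.81 in WT and −2.40 and −2.26 in KO, so both KO arrays were below both WT arrays (difference −0.996, SE 0.40, limma adjusted p of 0.9999), although the place of the probe relative to the deletion was not determined. Xist, which is transcribed from the inactive X chromosome of female cells, was bright on the arrays numbered 2 (14.13 in WT and 13.24 in KO, log2 signal before scaling) and near background on those numbered 3 (1.92 and 2.01). Ddx3y, a Y-linked gene, ran the other way (2.12 and 11.88 in WT and 1.63 and 11.44 in KO), so the label male was borne out on the arrays numbered 3 only. The WT arrays took positions 1 and 2 of the slide and the KO arrays positions 3 and 4, and position and genotype cannot be told apart.

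To ask whether loss of KDM5B changed these genes after infarction, KO was compared with WT by limma across all tested genes. No difference between the genotypes passed the test for any of the 10 genes. Most of them were at their lowest on KO 2 and at their highest on KO 3, with the WT arrays in between, so the spread between the KO arrays was wider than the gap between the genotypes. Wt1 and Aldh1a2 did not follow this order, and both were above both WT arrays on both KO arrays. In limma, 0 of 18457 tested genes (0%) passed an adjusted p of 0.05 with a fold change over 2, and every one of the 10 genes had an adjusted p of 0.9999. None of the 10 was among the 296 genes (1.6%) with an unadjusted p under 0.05. An exact permutation test of 2 against 2 arrays has 0.333 as its smallest two-sided p. The median difference, KO minus WT, was −0.80 over the 10 genes and 0.02 over all tested genes, and the median over the 10 genes was 0.84 without KO 2 and −2.41 without KO 3.

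**Figure D1:**
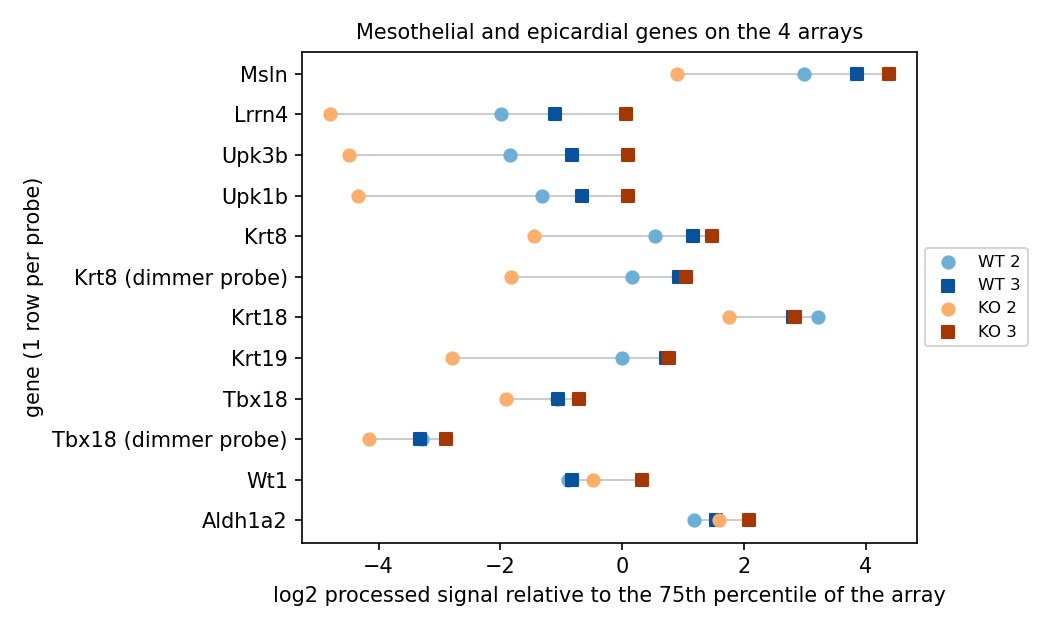
Log2 processed signal after subtracting the 75th percentile (x axis) for each probe of the 10 genes (y axis), with 1 point per array and a line over their range; circles are the arrays numbered 2 and squares those numbered 3, blue for WT and orange to brown for KO. KO 2 is the leftmost point for 8 of the 10 genes and KO 3 the rightmost for 9, while Wt1 and Aldh1a2 have both KO points to the right of both WT points.

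The genes for surface proteins of the mesothelium ranged widely between the KO arrays. Msln encodes mesothelin, a glycoprotein anchored to the outer membrane of mesothelial cells. Its level was 2.99 and 3.85 in WT and 0.90 and 4.38 in KO. KO 2 was the low array and KO 3 stood above both WT arrays, 11.1-fold over KO 2. The KO minus WT difference of Msln was −0.78 (SE 1.32), with a 95% confidence interval from −4.55 to 2.99. Lrrn4, a leucine-rich repeat membrane protein used as a marker of mesothelial cells, had levels of −1.99 and −1.10 in WT and −4.79 and 0.07 in KO. The KO arrays again enclosed both WT arrays, and they lay 29.1-fold apart, the widest gap of the 10 genes. The genotype difference of Lrrn4 was −0.82 (SE 1.82).

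The uroplakins are membrane proteins of the bladder lining that mesothelial cells also make. Upk3b was at −1.84 and −0.83 in WT and −4.49 and 0.10 in KO, which put KO 3 24.1-fold above KO 2. Upk1b, a tetraspanin that pairs with uroplakin 3, was at −1.32 and −0.67 in WT and −4.34 and 0.10 in KO, 21.6-fold apart in the KO group. In both genes the WT arrays differed far less, by 2.01-fold for Upk3b and 1.58-fold for Upk1b, and lay inside the range of the KO arrays. The WT mean of Upk1b was −0.99 ± 0.46 (SD, n = 2), and that of KO was −2.12 ± 3.14 (SD, n = 2), a 2.18-fold lower value with an SD larger than the difference. The difference of Upk3b was −0.86 (SE 1.73).

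The keratins of simple epithelia form the intermediate filaments of mesothelial cells, with Krt8 as the type II partner of the type I keratins Krt18 and Krt19. Krt8 was at 0.54 and 1.17 in WT and −1.44 and 1.47 in KO. Its dimmer probe gave 0.17, 0.93, −1.82 and 1.06 in the same order, and after centring the probes differed by at most 0.112 on any array. The order of the arrays was thus shared by both probes, with a 7.54-fold gap between the KO arrays on the brighter one. Krt19 was at 0.00 and 0.73 in WT and −2.80 and 0.77 in KO. Here KO 3 was level with WT 3 (1.03-fold), and the low value of KO 2 alone set the mean difference of −1.38 (SE 1.34), or 2.60-fold lower in KO. Without KO 2 the Krt19 difference was 0.40. Krt18 was at 3.22 and 2.81 in WT and 1.76 and 2.84 in KO, so that its highest array was WT 2 and not KO 3. Its KO arrays were 2.11-fold apart, and its difference was −0.71 (SE 0.47), with −0.17 without KO 2 and −1.25 without KO 3.

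Both transcription factors were steadier. Tbx18, a T-box factor of the epicardium and its progenitors, was at −1.08 and −1.05 in WT and −1.91 and −0.71 in KO, a difference of −0.25 (SE 0.48) with KO arrays on either side of the WT arrays. Its dimmer probe gave −3.28, −3.32, −4.15 and −2.89 on the same arrays, and the centred probes differed by at most 0.0432. Wt1, a zinc finger factor that the epicardium switches on in development and again after injury, was at −0.89 and −0.83 in WT and −0.48 and 0.33 in KO. Both KO arrays were above both WT arrays, and the mean was 1.72-fold higher in KO. The Wt1 difference was 0.78 (SE 0.36, 95% confidence interval −0.25 to 1.81), with a limma adjusted p of 0.9999. The Wt1 probe was spotted 10 times on each array, of which 9 spots were used on KO 2 and all on the others, and the SD between spots within an array was 0.0461 to 0.0702, so reading error within an array was small beside the gap of 0.81 between the KO arrays.

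Aldh1a2, the retinaldehyde dehydrogenase that makes retinoic acid in the epicardium, was at 1.18 and 1.54 in WT and 1.59 and 2.09 in KO. The KO arrays were both above the WT arrays, but KO 2 was only just above WT 3. The mean was 1.39-fold higher in KO, with a difference of 0.48 (SE 0.30, 95% confidence interval −0.39 to 1.34). Wt1 and Aldh1a2 were thus 2 of 10 genes with both KO arrays above both WT arrays, against 12.9% of all tested genes, and none of the 10 had both KO arrays below both WT arrays, against 10.7%. With any 1 array left out, the Wt1 difference ran from 0.37 (without KO 3) to 1.19 (without KO 2), and that of Aldh1a2 from 0.22 to 0.73. The sign could not turn in either gene, since both KO arrays were above both WT arrays.

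The comparison within each array number separated the genes further. At number 2, KO was below WT in 8 of 10 genes, against 8978 of all 18457 tested genes. Of the 10, 7 were lower by more than 2-fold, against 9.74% of all tested genes. The median at number 2 was −2.03 over the 10 genes and 0.02 over all. At number 3, KO was above WT in all 10 genes, by 0.03 (Krt18) to 1.17 (Lrrn4), against 9647 of all 18457 tested genes. Lrrn4 and Wt1 were higher by more than 2-fold, 2 of 10 against 2.5% of all. The median at number 3 was 0.54, and 0.01 over all tested genes. On the mean of both numbers, Upk1b and Krt19 were more than 2-fold lower in KO, 2 of 10 against 2.68% of all, and neither stayed below 0 without KO 2 (1.09 and 0.40). This count of 2 genes went to 0 without KO 2, 1 without WT 3, 6 without WT 2 and 7 without KO 3. There was 1 array of each genotype at each number, so whether the genotype difference varied with the number could not be tested, and the number also divided the arrays by the Xist and Ddx3y signal given above.

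**Figure D2:**
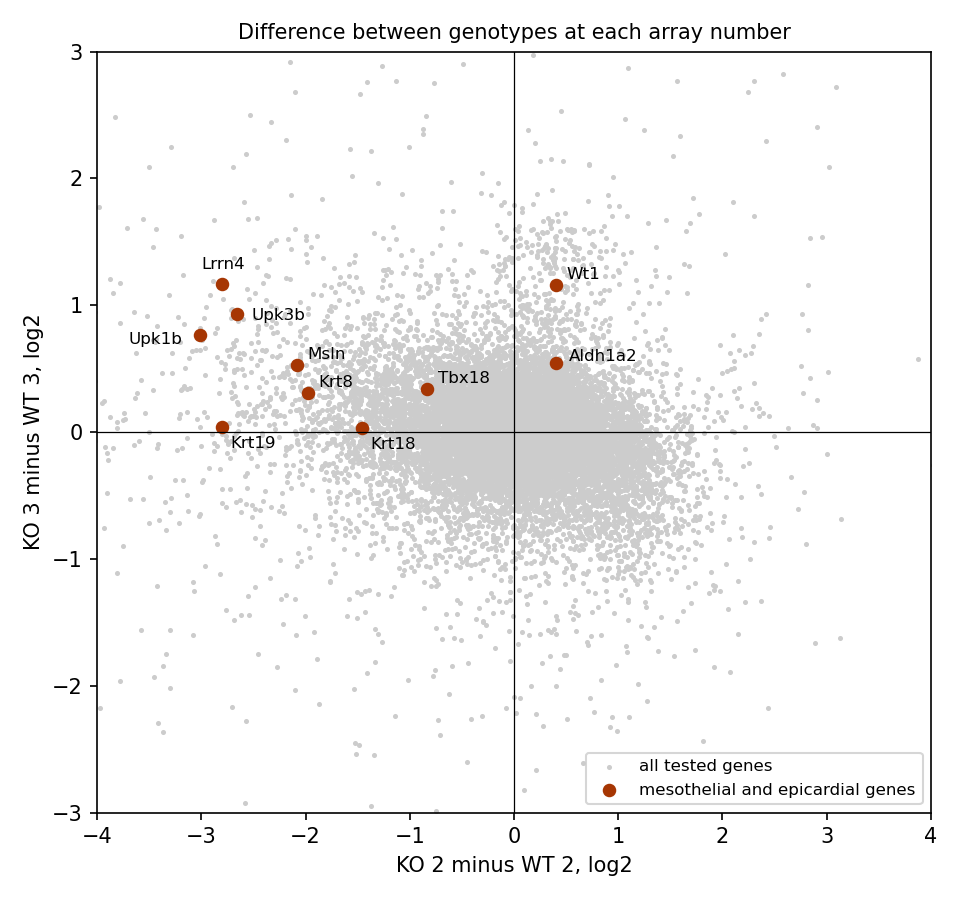
The log2 difference KO 2 minus WT 2 (x axis) against KO 3 minus WT 3 (y axis) for all 18457 tested genes (grey, 87 of them outside the axes) and the 10 mesothelial and epicardial genes (brown, named). Of the 10, 8 lie left of 0 on the x axis and all lie above 0 on the y axis, with only Wt1 and Aldh1a2 above 0 on both.

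Read by array, KO 2 was the lowest of the 4 arrays for 8 of 10 genes, against 41.2% of all tested genes, and KO 3 the highest for 9, against 31.6%. Both held for 7 of 10 genes, against 22.5%. KO 3 was more than 2-fold above KO 2 for 8 of 10, against 14.7%. The median gap between KO 3 and KO 2 was 3.20 on the log2 scale over the 10 genes and 0.05 over all. The WT arrays leaned the same way by less, with WT 3 above WT 2 in 9 of 10 genes. The median gap between WT 3 and WT 2 was 0.64 over the 10 genes and −0.006 over all. The SD of KO exceeded that of WT in all 10 genes. How many of all tested genes had these orders was not counted, so neither count can be read as particular to the 10. The centred profile of Krt8 lay nearest the mean profile of the 10 genes (Euclidean distance 0.329), and those of Wt1 (1.93) and Aldh1a2 (1.89) lay farthest from it.

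Further genes of the mesothelium and epicardium mostly had the same order of arrays. Of 27 listed genes, 24 were tested, and Upk3a was well above background on no array. In limma, at the brightest tested probe of each gene, 0 of the 24 passed the threshold, and 0 had an unadjusted p under 0.05. KO 2 was the lowest array for 21 of 24 (41.2% of all tested genes), KO 3 the highest for 17 (31.6% of all), and both held for 16 (22.5% of all). The exceptions to the low KO 2 were Clu, Cldn15 and Hand2, named here after their values were seen. Of the 24, 16 were more than 2-fold lower on KO 2 than on WT 2 (9.74% of all), and 20 were more than 2-fold higher on KO 3 than on KO 2 (14.7% of all). The median difference was −0.51 between genotypes, −1.20 at number 2 and 0.28 at number 3.

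Clu, a secreted chaperone of many tissues, was at 8.21 and 7.63 in WT and 7.48 and 7.34 in KO, and C3, the central complement protein, at 7.28, 7.88, 6.23 and 7.53. Sulf1, a sulfatase that trims heparan sulfate, was at 3.62, 3.92, 2.50 and 4.02 on the same arrays. These genes are made by other heart cells too. The next 4 genes were chosen after their values were seen. Muc16, the mucin that binds mesothelin, was at 0.43 and 0.99 in WT and −2.54 and 1.66 in KO, 18.3-fold apart in KO. Bnc1, a zinc finger factor of epicardium and squamous epithelia, was at −3.69, −3.04, −5.83 and −1.60 and was well above background on 3 of the 4 arrays. Rspo1, a secreted enhancer of Wnt signalling, was at 0.17, 1.40, −1.09 and 2.55. In Muc16, Bnc1 and Rspo1 KO 2 was the lowest array and KO 3 the highest, as for Msln and the uroplakins. Hand2, a factor of heart mesenchyme, ran the other way, at −0.92 and −0.84 in WT and 0.16 and −1.13 in KO. Of the 24, 3 had both KO arrays below both WT arrays (Clu, Igfbp6 and Has1), a share near the 10.7% of all tested genes, and none had both above, against 12.9%. Has1, a hyaluronan synthase, was the only one of these with a mean more than 2-fold lower in KO, at −0.26 and −0.37 in WT and −2.22 and −0.49 in KO (difference −1.04, SE 0.67). The counts were read at the brightest tested probe of each gene. A dimmer probe of Itga4 had both KO arrays above both WT arrays, at −5.06 and −4.91 in WT and −3.86 and −3.55 in KO. Its limma unadjusted p was 0.0071 and its adjusted p 0.9999. On the other probes of Itga4 the genotypes overlapped.

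**Figure D3:**
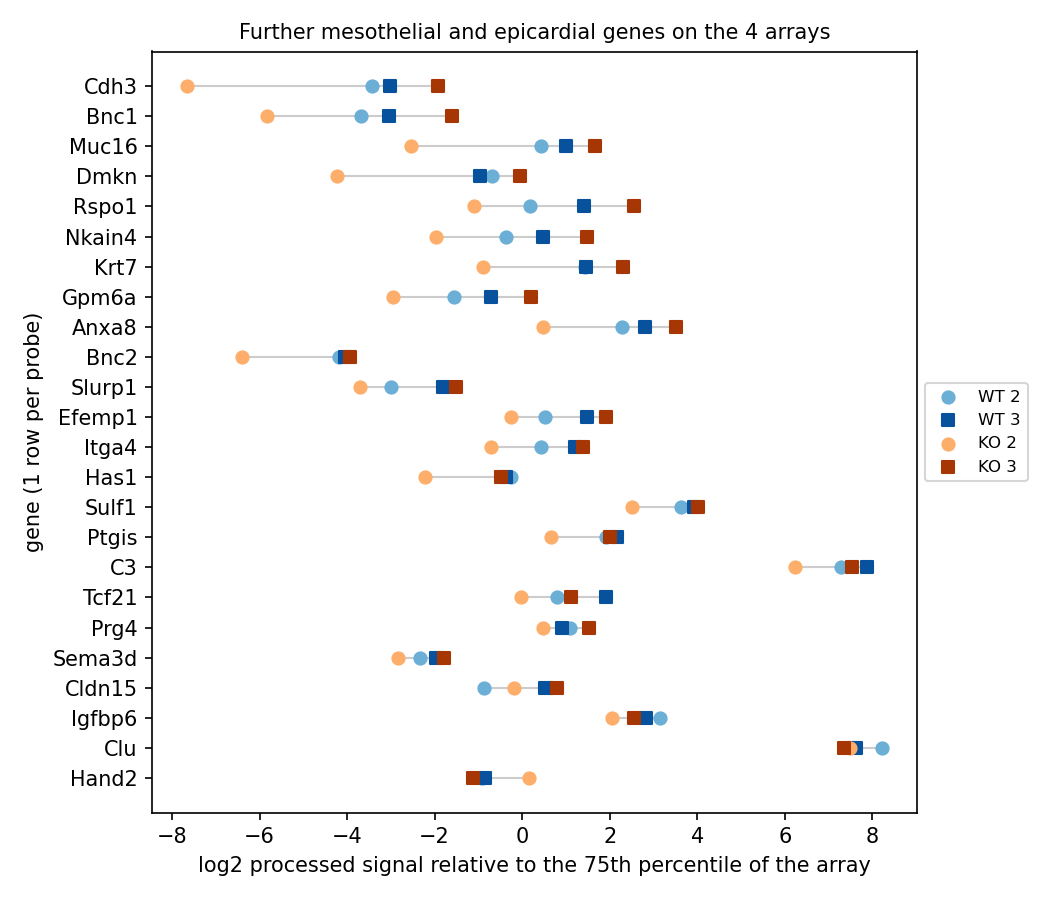
Log2 processed signal after subtracting the 75th percentile (x axis) for the 24 further mesothelial and epicardial genes that were tested (y axis, sorted by the gap between the KO arrays), with 1 point per array in the colours and shapes used for the 10 genes. KO 2 is the leftmost point for 21 of the 24 and KO 3 the rightmost for 17.

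Aldh1a2 works within the retinoic acid pathway, and no other tested gene of the pathway had both KO arrays above both WT arrays. Retinol is carried by Rbp4, oxidised to retinaldehyde by Rdh10 and then to retinoic acid by the Aldh1a enzymes, and Crabp2 brings retinoic acid to its nuclear receptors. Of 17 listed genes besides Aldh1a2, 15 were tested and 0 passed the limma threshold. For 4 of the 15 (Rdh10, Rbp4, Crabp2 and Rarg) the KO arrays were both under the WT arrays, against 10.7% of all tested genes. Rbp4 was at 0.61 and −0.19 in WT and −0.89 and −0.97 in KO. The arrays of the 2 groups did not overlap, and the difference was −1.14 (SE 0.36, limma adjusted p of 0.9999). Crabp2 was well above background on both WT arrays and on neither KO array, so its fold is a bound. It was at least 4.27-fold higher in WT (limma adjusted p of 0.9999), taking for each KO array the lowest signal among probes well above background where that exceeded the probe's own. Rbp4 and Crabp2 were the 2 of 15 genes with an unadjusted p under 0.05, against 1.6% of all. Rdh10 was at 1.60, 1.39, 0.88 and 1.10 and the receptor gene Rarg at −1.86, −1.91, −2.60 and −2.02. The median difference over the 15 genes was −0.07, and KO 2 was the lowest array for 8 (41.2% of all) and KO 3 the highest for 3 of them (31.6% of all).

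Genes of the epithelial-to-mesenchymal transition, by which epicardial cells turn into migrating mesenchyme, were all tested (16 of 16). In limma 0 passed the threshold and 0 had an unadjusted p under 0.05, and the median difference was −0.29. KO 2 was the lowest array for 12 of the 16 (41.2% of all tested genes), KO 3 the highest for 7 (31.6% of all), and both held for 7 (22.5% of all). Vim, the intermediate filament of mesenchymal cells, was at 6.57 and 6.64 in WT and 6.21 and 6.91 in KO. Tmsb4x, an actin-binding peptide gene, was at 7.11, 7.27, 6.62 and 7.73 on the same arrays. Both followed the order of the mesothelial genes, within a narrower range. Pdgfra and Fgfr1, receptors that act in epicardial cells that have left the epithelium, were the 2 of 16 genes with both KO arrays below both WT arrays, a share near the 10.7% of all tested genes (differences of −0.78, SE 0.35, and −0.53, SE 0.34).

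Most markers of other epithelia, which share keratins with the mesothelium, did not clear background. Of 14 genes for epithelial cells of lung, thymus and other organs, 8 were well above background on no array. Those 8 were Epcam, Sftpc, Sftpb, Sftpa1, Krt15, Cldn4, Foxn1 and Nkx2-1. The other 6, namely Cdh1, Scgb1a1, Scgb3a2, Krt5, Krt14 and Cldn7, cleared background on both arrays of at least 1 genotype and were tested. Their summed level, in units of the 75th percentile of the array, was 0.742 to 0.831 in WT and 0.477 to 0.992 in KO.

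Markers of other heart cells moved on the same arrays. Leukocyte genes had the same order as the mesothelial genes, with KO 2 lowest and KO 3 highest for 6 of 7 (22.5% of all tested genes). Their mean log2 level was 0.71 and 1.20 in WT and −0.56 and 1.51 in KO. Fibroblast genes were lower on KO 2 (mean of 4.42) than on the others (5.39 to 5.53). The lists are not fully separate, since Tcf21 was also in the further mesothelial list and Pdgfra also in the transition list. Cardiomyocyte genes ran the other way, with means of 6.39 and 5.26 in WT and 7.38 and 4.45 in KO. Atrial genes (4 of 5 tested, Bmp10 on no array) averaged 6.76 on KO 2 and 0.06 to 1.42 on the other arrays, and adipocyte genes (4 of 8 tested, Lep and Ucp1 on no array) 1.15 on KO 2 and −2.57 to −2.14 elsewhere. Sln, a regulator of the atrial calcium pump, was at 5.95 on KO 2 and −7.23, −4.95 and −2.46 on WT 2, WT 3 and KO 3, and Myl7, the atrial myosin light chain, at 6.39 against −0.70, −0.35 and 0.23. Cidec, a lipid droplet protein, was at −5.04 and −5.25 in WT and −0.83 and −4.58 in KO, and Retn, an adipocyte hormone gene well above background on the KO arrays only, was at least 1.69-fold higher in KO (limma adjusted p of 0.9999). Summed levels in units of the 75th percentile were 866 to 1753 in WT and 591 to 3270 in KO for the cardiomyocyte list, and 34.3 to 55.8 in WT and 12.6 to 68.8 in KO for the leukocyte list. They were 374 to 450 in WT and 379 to 794 in KO for the atrial list, and 73.7 to 84.7 in WT and 59.3 to 176 in KO for the adipocyte list. Endothelial genes averaged 2.58 on KO 2 and 1.93 to 2.17 on the others. The part of cell composition in the values of the mesothelial and epicardial genes was not tested.

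**Figure D4:**
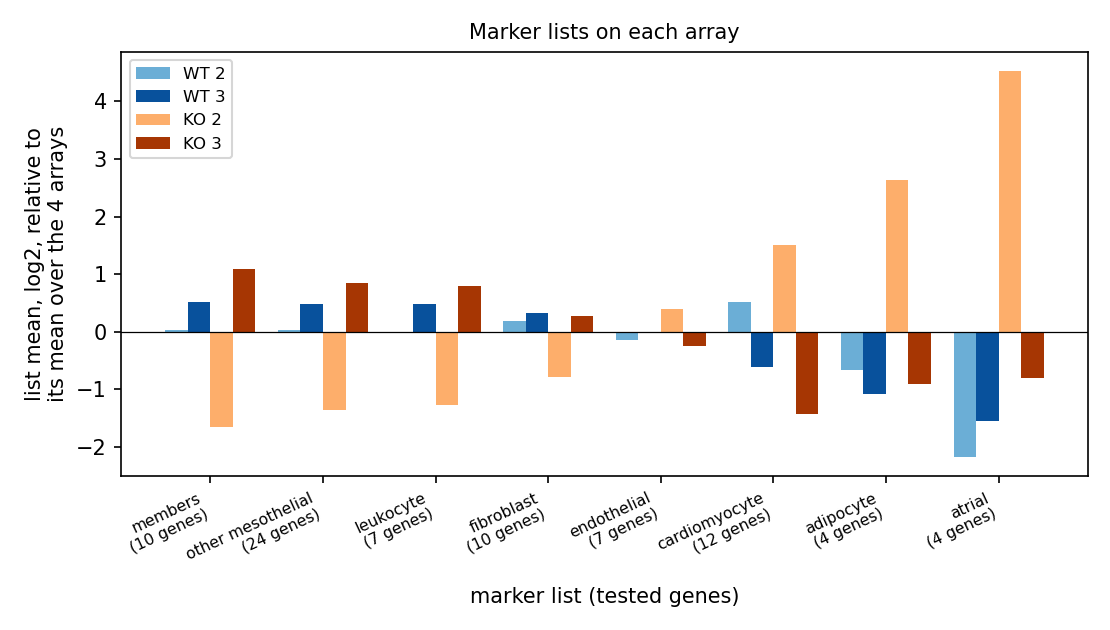
Mean log2 level of each marker list on each array, relative to the mean of that list over the 4 arrays (y axis, log2 units), for the lists named on the x axis with the number of tested genes; "members" are the 10 mesothelial and epicardial genes. On KO 2 the mesothelial, leukocyte and fibroblast lists lie below 0 (−1.65 for the 10 genes) and the cardiomyocyte, adipocyte and atrial lists above 0 (4.53 for the atrial list), and on KO 3 the 10 genes (1.10), the other mesothelial list (0.84) and the leukocyte list (0.80) lie highest.

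Among genes outside the lists, the 5 whose centred profile over the 4 arrays was nearest the mean profile of the 10 genes were Rab32 (Euclidean distance 0.0640), Apobr (0.0817), Mbp (0.105), Sh2d1b1 (0.113) and Sfpi1 (0.121). On Rab32, for example, the arrays stood at 0.06 and 0.47 in WT and −1.61 and 1.08 in KO around their mean, and the 10 genes averaged 0.03, 0.52, −1.65 and 1.10. With 4 arrays, a likeness of profile is a description of these arrays.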

How the data were processed

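RNA of 4 hearts or pools was hybridised to Agilent Whole Mouse Genome one-colour arrays, 2 per genotype, grouped and numbered by the sample titles. The authors deposited the intensity of each spot from Agilent Feature Extraction (version 10.7.3.1 per the file headers, probes placed on mm9), background-subtracted and detrended. They also deposited a table of log2 values. The methods name GeneSpring software for normalization but not the option used. Of the rows of this table, 99.9% to 99.96% lay within 0.01 of the quantile-normalized log2 intensity, with a median of 6.78 in every column.

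From the 43379 non-control spots per array, 92 to 116 carried outlier flags and were left out, and replicate spots were averaged to 41174 probes. The log2 intensity was shifted by the 75th percentile of each array. Testing was limited to probes that cleared background on both arrays of either genotype (28305 probes; 12863 were too dim and 6 lacked a value), and the tested probe with the highest mean stood for its gene (18457 genes). The genotypes were compared in limma 3.58.1 (lmFit, eBayes; R 4.3.3), with Benjamini-Hochberg adjustment over all tested probes, and calls were made at an adjusted p below 0.05 with more than 2-fold change. The script was tested on simulated data.

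The genes and lists were chosen with earlier results of these data known. The 10 genes and Kdm5b were always named, with the 5 nearest profiles, and from each further list the genes with non-overlapping arrays and a fold change over 2 and at most 4 examples, the brightest first. Examples outside this rule are marked. The leukocyte marker Adgre1 was read under its older symbol Emr1. The smooth muscle and pericyte list gave mean log2 levels of 3.04 and 3.66 in WT and 2.86 and 3.92 in KO (array 2 before array 3). Alternatives were normexp background correction (offset 50), quantile normalization, a shift by the median, other filters on dim probes, the authors' values, a block for the array number, omission of each array, the methods' t-test and the mean of the probes of a gene. The arrays shared 1 slide and 1 scan day, so no block for either could be fitted.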

Additional observations from a re-analysis of the deposited data

Results flagged for a closer look

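For 8 of the 10 mesothelial and epicardial genes, the difference between the genotypes had opposite signs at the 2 array numbers. The signs were also opposite in 9916 of all 18457 tested genes. In the 8 genes, KO was below WT at number 2 and above it at number 3. The difference at number 3 minus that at number 2 was 2.61 for Msln, 3.97 for Lrrn4, 3.59 for Upk3b, 3.78 for Upk1b, 2.28 for Krt8, 1.49 for Krt18, 2.84 for Krt19 and 1.17 for Tbx18, on the log2 scale. Each number held 1 array of each genotype, so this difference was not tested. Xist, which took no part in the comparisons, reached 14.13 on WT 2 and 13.24 on KO 2 (log2 signal before scaling), although all samples are labelled male.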

How the results depend on the processing

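The counts of probes and of the 10 genes past the threshold were 0 under every alternative that was run, with the number of probes at an unadjusted p under 0.05 going from 410 to 1162 with normexp correction, to 1695 without KO 2 (3 of the 10 genes), to 7278 without KO 3 (8 of the 10) and to 879 by the methods' t-test (0 of the 10, and 0 probes after Benjamini-Hochberg adjustment). With all 4 arrays, 90 of 90 differences of single genes kept their direction, and the median difference of the 10 genes ran from −0.80 to −0.36. Much of this count was fixed in advance. The filters on dim probes, the block and the t-test left every difference of the 10 genes as it was. The mean of the probes could move only Krt8 and Tbx18, and the authors' values were close to the quantile normalization. Normexp correction moved the median of all probes from 0.02 to 0.13, and left 1 gene more than 2-fold lower in KO in place of 2. It also brought the difference of Lrrn4 from −0.82 to −0.12, of Upk3b from −0.86 to −0.20, of Upk1b from −1.13 to −0.51 and of Tbx18 from −0.25 to −0.14.

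With 1 array left out, 33 of 40 differences of single genes kept their direction. Those of Wt1 and Aldh1a2 could not turn, since both KO arrays were above both WT arrays. The 7 that turned did so without KO 2. Their ranges, from the lowest without KO 3 to the highest without KO 2, were −2.52 to 0.96 for Msln, −3.16 to 1.43 for Upk3b, −3.34 to 1.09 for Upk1b, −2.29 to 0.62 for Krt8, −3.16 to 0.40 for Krt19, −3.25 to 1.62 for Lrrn4 and −0.85 to 0.35 for Tbx18. The median of the 10 genes ran from −2.41 (without KO 3) to 0.84 (without KO 2), the count more than 2-fold lower in KO from 0 (without KO 2) to 7 (without KO 3), with 6 without WT 2 and 1 without WT 3, and the count more than 2-fold higher from 0 to 4 (without KO 2). In these fits the lone array is assumed to vary like the other genotype. The cause was not tested.

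With the array number as a block, 0 probes passed and 602 had an unadjusted p under 0.05. The median difference of the 10 genes stayed at −0.80, as it must with 1 array of each genotype at each number. The block changed the SE, from 1.82 to 1.09 for Lrrn4 but only from 0.467 to 0.464 for Krt18. The labels do not say what the numbers mark, and 2 pairs cannot show whether they pair the samples.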
